A study of Mus musculus with 8 samples.

Results

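The 9 genes described here are the 4 class I histone deacetylases (HDACs) Hdac1, Hdac2, Hdac3 and Hdac8 and the 5 corepressor genes Ncor1, Tbl1xr1, Chd3, Sin3a and Rcor1. They were taken by symbol from a table of 55487 genes, and all 9 were among the 13312 genes with enough reads to be tested. The study sequenced liver poly(A) RNA from male mice of the inbred strain C57Bl/6J, aged about 10 weeks. The control group (4 libraries) had received water and the sorbate group (4 libraries) 17 mg of potassium sorbate, a food preservative, both by oral gavage 4 hours earlier. No genotype other than the strain is named for either group. Whether libraries came from separate animals is not stated, so the spread behind each p-value is that between these 8 libraries, which may be technical. The series title names class I HDACs as the enzymes through which sorbate leads to lysine sorbylation, so the question here is whether the transcripts of these enzymes and their partners differed between the groups, and how large a change the data can exclude.

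Class I HDACs remove acetyl and other acyl groups from lysine residues of histones and other proteins. Hdac1 and Hdac2 act as the catalytic subunits of the NuRD, SIN3, CoREST and MiDAC complexes, and Hdac3 acts within the NCoR complex. Hdac8 works outside these complexes. In liver, Hdac3 with its corepressor NCoR is known for repressing genes of lipid metabolism, in part through the clock repressors of the REV-ERB family.

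Libraries held 15773932 to 25844731 counts. Members had between 55 (Hdac8) and 4327 (Chd3) counts in a library. Values are CPM, a gene's counts on the usual per-million scale with libraries scaled by TMM, and differences are log2 fold changes of sorbate over control. Over all genes tested 818 were higher and 838 lower with sorbate, and library-size scaling in place of TMM gave 1300 and 550. The median log2 difference over these genes was −0.02 with TMM and 0.11 with library-size scaling. Control 2 stood apart from the other controls: it scored 15.4 on the first principal component, against −49.1 to −42.1 for the other controls and 21.9 to 37.8 for the sorbate libraries. Results for members are therefore also given without it where they change.

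Of the 9 genes, Chd3 rose, Tbl1xr1 fell and the other 7 did not pass the test, among them all 4 deacetylases. One called gene in each direction compares with 6.14% of all tested genes called higher and 6.30% called lower, and 2 of 9 called in either direction with 12.4%. In TMM-scaled CPM the groups did not overlap for 4 members, Hdac1, Hdac3, Tbl1xr1 and Chd3. On the same scale 17.7% of all tested genes showed no overlap. For Hdac1 the separation was absent without TMM. The median log2 fold change of the 9 genes was 0.00, against −0.02 over all tested genes. Whole liver was sequenced, so fewer cells of a type and less RNA per cell cannot be told apart. The 95% confidence intervals reached from 0.22 to 0.37 log2 units to either side of the estimate, against a median of 0.38 over all tested genes. For 6 of the 9 genes the 95% interval lay wholly within a 1.5-fold change in either direction. These were the 4 deacetylases, Ncor1 and Rcor1, and 40.1% of all tested genes had such an interval. The 99% intervals of Hdac3 (−0.04 to 0.65), Ncor1 (−0.23 to 0.67) and Rcor1 (−0.67 to 0.21) reached past 1.5-fold. All intervals rest on TMM scaling. With library-size scaling the log2 fold changes of Hdac3 (0.43, SE 0.13) and Ncor1 (0.34, SE 0.16) were larger than the main 0.31 and 0.22. Without control 2 that of Hdac3 was 0.40 (SE 0.10), and without sorbate 4 that of Rcor1 was −0.34 (SE 0.13). With these estimates and SEs the 95% intervals would reach past 1.5-fold. For Hdac3, Ncor1 and Rcor1 the exclusion of a 1.5-fold change therefore depends on the fit. For all 9 genes a 2-fold change in either direction lay outside the 95% interval. The 99% interval of Tbl1xr1 (−1.03 to −0.24) reached past a 2-fold fall. Intervals are per gene and were not widened for the number of genes.

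**Figure D1:**
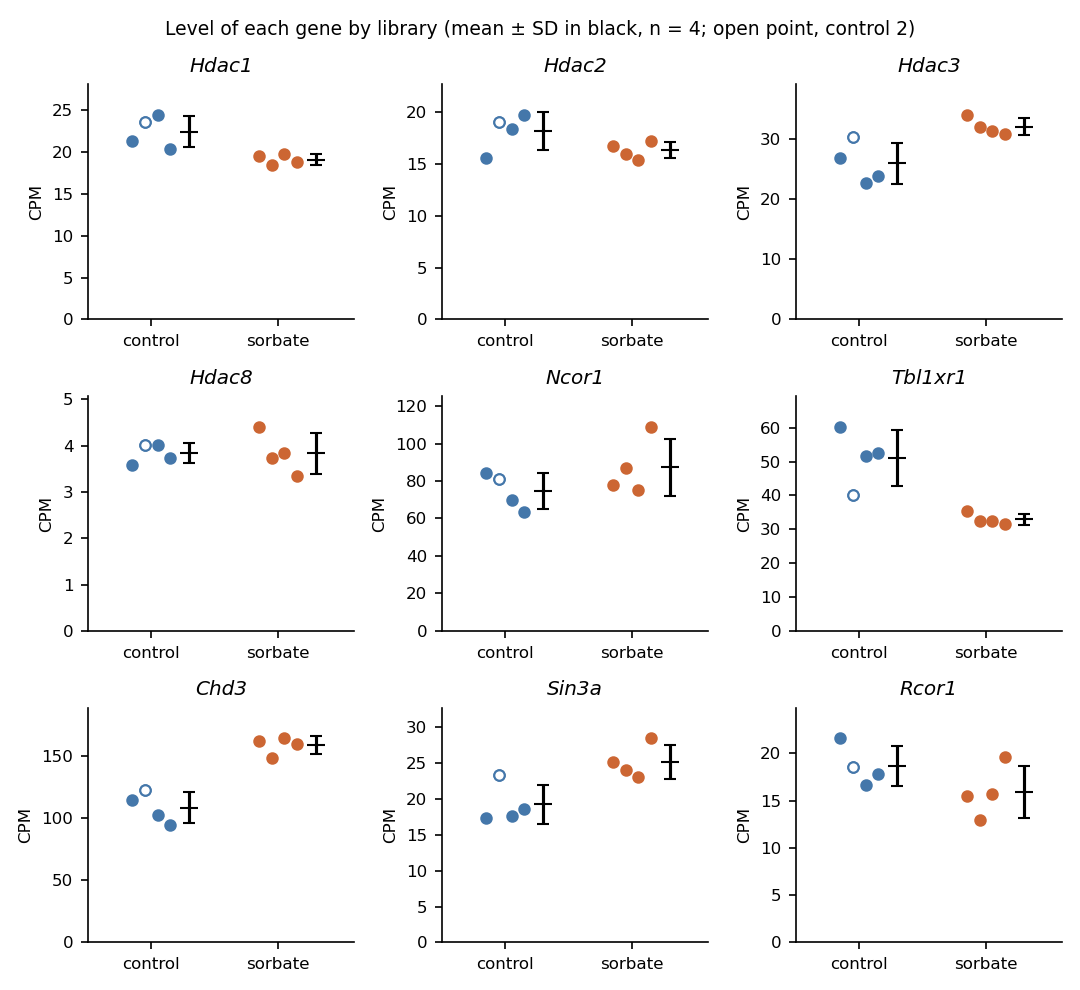
CPM of the 9 genes in each of the 8 libraries, with the mean and SD of each group in black (n = 4) and control 2 as an open point. Sorbate libraries lie above all controls for Hdac3 and Chd3 and below all controls for Hdac1 and Tbl1xr1, while the groups overlap for the other 5 genes.

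The Hdac1 transcript is the member whose reads are hardest to place, because a processed pseudogene, Hdac1-ps (chromosome 17, 78491582 to 78493025, GRCm38), is a near copy of its coding sequence (Hdac1 itself lies on chromosome 4, 129516104 to 129542713, minus strand). Over 1444 aligned bases the copies were identical at 99.4%, without a gap, and the longest identical run was 450 bases. The coding stretch with the most differences, 5 in 60 bases (bases 423 to 482, counted from the first base of the start codon in Hdac1 and from the first base of the pseudogene), is shown in transcript sense from the GENCODE vM21 transcripts, with the differing bases in capitals, because within the copied part only reads over such positions distinguish the copies.
Hdac1: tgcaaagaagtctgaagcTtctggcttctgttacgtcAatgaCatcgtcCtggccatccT
Hdac1-ps: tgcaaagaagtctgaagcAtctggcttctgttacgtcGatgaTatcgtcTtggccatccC
Of the 50-base words in Hdac1 transcripts, 35.5% also occurred in transcripts of another gene, against 0% for Hdac2, Hdac3, Hdac8 and Chd3 and at most 1.97% for the other members. Hdac1-ps took 4.39% to 9.35% of the counts of the pair in the controls and 4.44% to 6.93% with sorbate.

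Hdac1, the catalytic subunit shared by most of these complexes, had 21.3, 23.6, 24.4 and 20.4 CPM in controls 1 to 4 and 19.5, 18.4, 19.7 and 18.8 CPM in sorbate libraries 1 to 4. On this TMM scale every sorbate library lay below every control, by a small margin. Per total count the groups overlapped: control 4 had 414 of 22183016 counts and sorbate 3 had 430 of 21234874. The log2 fold change was −0.23 (SE 0.10, adjusted p = 0.148, edgeR's quasi-likelihood test), with a 95% interval from −0.45 to −0.01. As a ratio of sorbate to control this is 0.85, with an interval from 0.73 to 0.99. The 99% interval of the log2 fold change reached from −0.54 to 0.08, and with library-size scaling the log2 fold change was −0.11 (SE 0.11, adjusted p = 0.541). Adding the counts of Hdac1-ps gave −0.23 (SE 0.10, adjusted p = 0.154).

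Hdac2, the close paralog of Hdac1 (chromosome 10, 36974544 to 37001889), had 15.6, 19, 18.4 and 19.7 CPM in the controls and 16.7, 16, 15.4 and 17.2 CPM with sorbate. Control 1 was as low as the sorbate libraries and the groups overlapped. Its log2 fold change was −0.16 (SE 0.11, adjusted p = 0.357), and the ratio of 0.90 had an interval from 0.76 to 1.06. With library-size scaling the log2 fold change was −0.03.

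Hdac3, the deacetylase of the NCoR complex, had 26.9, 30.4, 22.7 and 23.9 CPM in the controls and 34.0, 32.1, 31.4 and 30.9 CPM with sorbate. All sorbate libraries lay above all controls, with control 2 just below the lowest of them. The log2 fold change was 0.31 (SE 0.11), which did not pass the threshold (adjusted p = 0.0957), with a 95% interval from 0.06 to 0.55. On the linear scale this is a ratio of 1.24 and an interval from 1.04 to 1.47. Without control 2 the log2 fold change was 0.40 and passed (adjusted p = 0.0127), and library-size scaling also brought it past the threshold (0.43, adjusted p = 0.0469). With 1 surrogate variable, a covariate estimated from the data, it was 0.20 (adjusted p = 0.422).

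Hdac8, the deacetylase outside the multi-subunit complexes (chromosome X, 102284639 to 102505359), was the lowest member at 3.58, 4.02, 4.01 and 3.74 CPM in the controls and 4.41, 3.73, 3.84 and 3.35 CPM with sorbate. The sorbate libraries spread to both sides of the controls. Its log2 fold change was 0.00 (SE 0.17, adjusted p = 0.996), and it was 0.13 with library-size scaling. It rested on 303 control and 341 sorbate counts, and the interval of the ratio, from 0.77 to 1.30, was the widest of the 9 on the log scale.

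Per length of the longest protein-coding transcript (RPKM, CPM divided by the length in kilobases), the class I levels over the 8 libraries followed the order Hdac3, Hdac1, Hdac2, Hdac8. Hdac3 stood at 14.3 ± 2.01 RPKM and Hdac1 at 10.2 ± 1.07 RPKM (SD, n = 8 libraries). The ranges of these neighbours overlapped (11.2 to 16.8 and 9.05 to 12 RPKM). Hdac2, at 5.31 ± 0.497 RPKM, and Hdac8, at 1.98 ± 0.165 RPKM, did not overlap in range with their neighbours in this order. The summed level of the 4 genes was 29.7 to 34.5 RPKM in the controls and 31.4 to 33.7 RPKM with sorbate. Within that sum Hdac3 took 36.2% to 43.7% in the controls and 48.4% to 49.8% with sorbate. The share of Hdac1 was 33.5% to 38.7% in the controls and 28.3% to 30.3% with sorbate. Hdac2 took 15.8% to 20.4% and 14.9% to 16.8%, and Hdac8 6.02% to 6.72% and 5.50% to 6.75%. These shares are a description and were not tested.

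**Figure D2:**
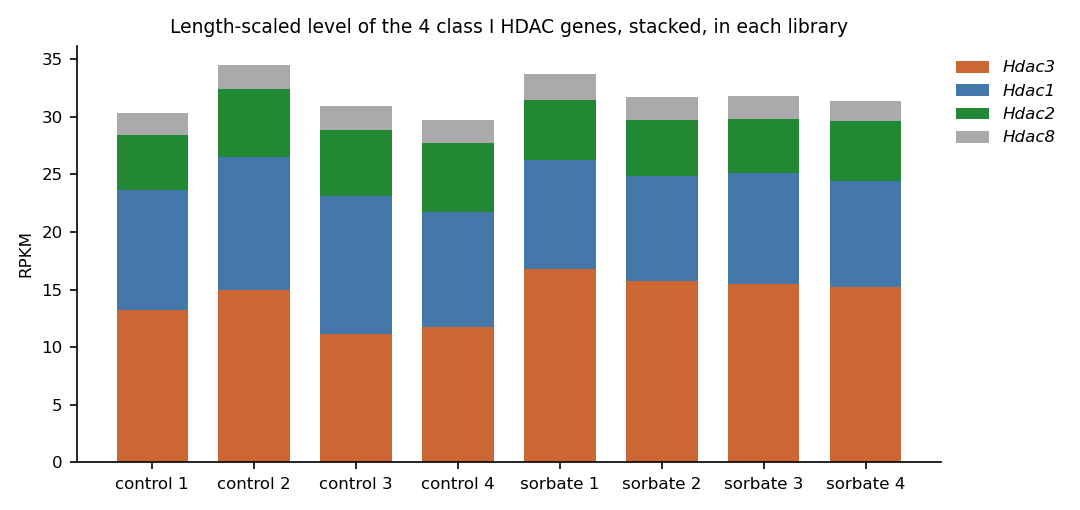
Stacked RPKM of the 4 class I HDAC genes (longest protein-coding transcript as length) in each library. Bar heights span 29.7 to 34.5 in the controls and 31.4 to 33.7 with sorbate, and the lowest segment, Hdac3, is a larger share of each sorbate bar (48.4% to 49.8%) than of any control bar (36.2% to 43.7%).

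Ncor1, the scaffold that binds Hdac3 and nuclear receptors (chromosome 11, 62316426 to 62458541), had 84.2, 81.3, 70 and 63.4 CPM in the controls and 77.8, 86.9, 75.1 and 109 CPM with sorbate. The groups overlapped, and sorbate 4 was the highest library. The log2 fold change was 0.22 (SE 0.14, adjusted p = 0.332), with a ratio of 1.17 and an interval from 0.94 to 1.46. The log2 fold change was 0.10 without sorbate 4 and 0.34 with library-size scaling.

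Tbl1xr1 encodes TBLR1, a WD-repeat subunit of the same complex (chromosome 3, 22076652 to 22216594). It had 60.3, 40.2, 51.6 and 52.5 CPM in the controls and 35.3, 32.5, 32.3 and 31.5 CPM with sorbate. Control 2 lay between the other controls and the sorbate libraries, and the groups did not overlap. Tbl1xr1 fell by 0.64 on the log2 scale (SE 0.13, adjusted p = 0.0111), a ratio of 0.64 with an interval from 0.53 to 0.78. The call held in all 8 leave-outs of a library (log2 fold change −0.72 to −0.55), and it was lost with the surrogate variable (−0.41, adjusted p = 0.0589). That variable took values of −0.532 to −0.365 in 3 controls, 0.471 in control 2 and 0.0844 to 0.305 with sorbate.

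Chd3, an ATP-dependent chromatin remodeller of NuRD (chromosome 11, 69343273 to 69369406), was the most abundant member per length, at 18.3 ± 3.92 RPKM over the 8 libraries. It had 114, 122, 102 and 93.9 CPM in the controls and 162, 148, 164 and 159 CPM with sorbate. All sorbate libraries were higher than all controls by a clear margin. Chd3 rose by 0.55 on the log2 scale (SE 0.11, adjusted p = 0.0112), a ratio of 1.47 with an interval from 1.24 to 1.73. The call held in all 8 leave-outs (0.49 to 0.63) and was lost with the surrogate variable (0.46, adjusted p = 0.0633).

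Sin3a, the scaffold of the SIN3 complex (chromosome 9, 57072040 to 57128366), had 17.4, 23.3, 17.7 and 18.6 CPM in the controls and 25.2, 24.0, 23.1 and 28.5 CPM with sorbate. Only control 2 reached into the range of the sorbate libraries. The log2 fold change was 0.39 (SE 0.12) and did not pass (adjusted p = 0.0636), with a ratio of 1.31 and an interval from 1.08 to 1.58. It passed without control 2 (0.50, adjusted p = 0.00475), with library-size scaling (0.51, adjusted p = 0.0337) and with DESeq2 (0.40, adjusted p = 0.0450). With the surrogate variable it was 0.23 (adjusted p = 0.334). A long noncoding gene on the opposite strand, Man2c1os, covers 3.81% of its exon bases, and strand use in counting is not given in the sources used here.

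Rcor1, which encodes the CoREST scaffold protein (chromosome 12, 111039351 to 111115901), had 21.6, 18.5, 16.6 and 17.8 CPM in the controls and 15.5, 12.9, 15.7 and 19.6 CPM with sorbate. The groups overlapped, with sorbate 4 above 3 of the controls. Its log2 fold change was −0.23 (SE 0.14, adjusted p = 0.311), and the ratio of 0.85 had an interval from 0.69 to 1.06. The log2 fold change was −0.15 without control 1, −0.14 without sorbate 2 and −0.10 with library-size scaling.

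**Figure D3:**
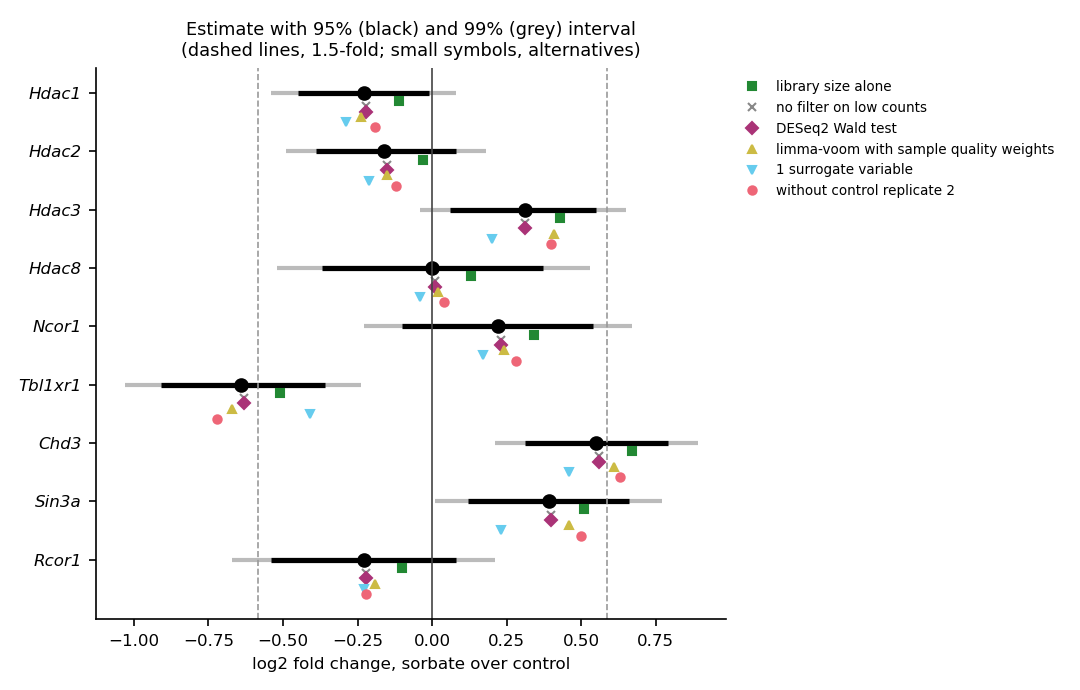
Log2 fold change of sorbate over control for the 9 genes (black point) with its 95% (black) and 99% (grey) interval, and the estimate under 6 alternatives as small symbols. The intervals of Tbl1xr1 and Chd3 lie to opposite sides of 0 at both levels, and that of Hdac8 is centred on 0. That of Sin3a also lies above 0 at both levels (99%, 0.01 to 0.77). Those of Hdac1 and Hdac3 exclude 0 at the 95% level only.

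The other subunits of these complexes were examined in the same fit. Of 46 listed genes of the NuRD, SIN3, CoREST, NCoR and MiDAC complexes, 43 were tested (Chd5, Brms1 and Rcor2 had too few reads). Higher levels were called for 3 of them (Chd3, Suds3 and Tbl1x) and a lower level for 1 (Tbl1xr1), which is 9.30% called, against 12.4% of all genes. Their median log2 fold change was 0.03, against −0.02 over all genes tested. Leaving out the 5 members among them, 2 of 38 were called, both higher.

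The subunits of NuRD combine the deacetylase with remodellers and methyl-CpG-binding proteins. In this complex Chd3 was called and the other 11 tested genes were not (range of log2 fold changes −0.27 to 0.13). That is 8.33% called, against 12.4% of all tested genes. Chd4, the paralog that takes the remodeller place in other NuRD assemblies, had a log2 fold change of 0.13 (SE 0.11, 95% interval −0.12 to 0.38).

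In SIN3, 1 of 16 tested genes was called (6.25%), against 12.4% of all tested genes. Suds3, a subunit that links Sin3a to the deacetylase, had 57.0, 64.6, 52.6 and 55.7 CPM in the controls and 81.7, 81.6, 69.0 and 71.9 CPM with sorbate. Every sorbate library exceeded every control, and Suds3 rose by 0.40 on the log2 scale (SE 0.11, adjusted p = 0.0354). That call held only in the leave-out of control 2 and was lost in each of the other 7 (0.36 to 0.48 over all 8, adjusted p up to 0.114). Sin3b, the paralog of Sin3a, had a log2 fold change of −0.04 (SE 0.11, interval −0.28 to 0.20).

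In CoREST, none of the 9 tested genes was called by edgeR's quasi-likelihood test, against 12.4% of all tested genes. At an unadjusted p under 0.05 there was 1, Gse1. The share of all tested genes at that unadjusted level was not counted, so such counts have no background here. Gse1 had the lowest p (log2 fold change 0.57, SE 0.22, adjusted p = 0.111), followed by Zmym3 (0.35, SE 0.17, adjusted p = 0.188). In MiDAC, none of the 3 tested genes was called by that test, and 0 had an unadjusted p under 0.05. Trerf1 (−0.54, SE 0.52) and Dnttip1 (−0.06, SE 0.15) had the lowest p among them, and Trerf1 was at most at 0.558 CPM on group average.

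In the NCoR complex the paralogous WD-repeat subunits Tbl1xr1 and Tbl1x were called in opposite directions. With only 5 genes tested this is 40.0% called, against 12.4% of all tested genes. Tbl1x had 30.0, 36.8, 28.8 and 23.8 CPM in the controls and 40.8, 35.5, 44.6 and 45.0 CPM with sorbate. Control 2 exceeded the lowest sorbate library. Tbl1x rose by 0.48 on the log2 scale (SE 0.14, adjusted p = 0.0493), a call that held only in the leave-out of control 2 and was lost in each of the other 7 (0.38 to 0.60 over all 8, adjusted p up to 0.131).

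**Figure D4:**
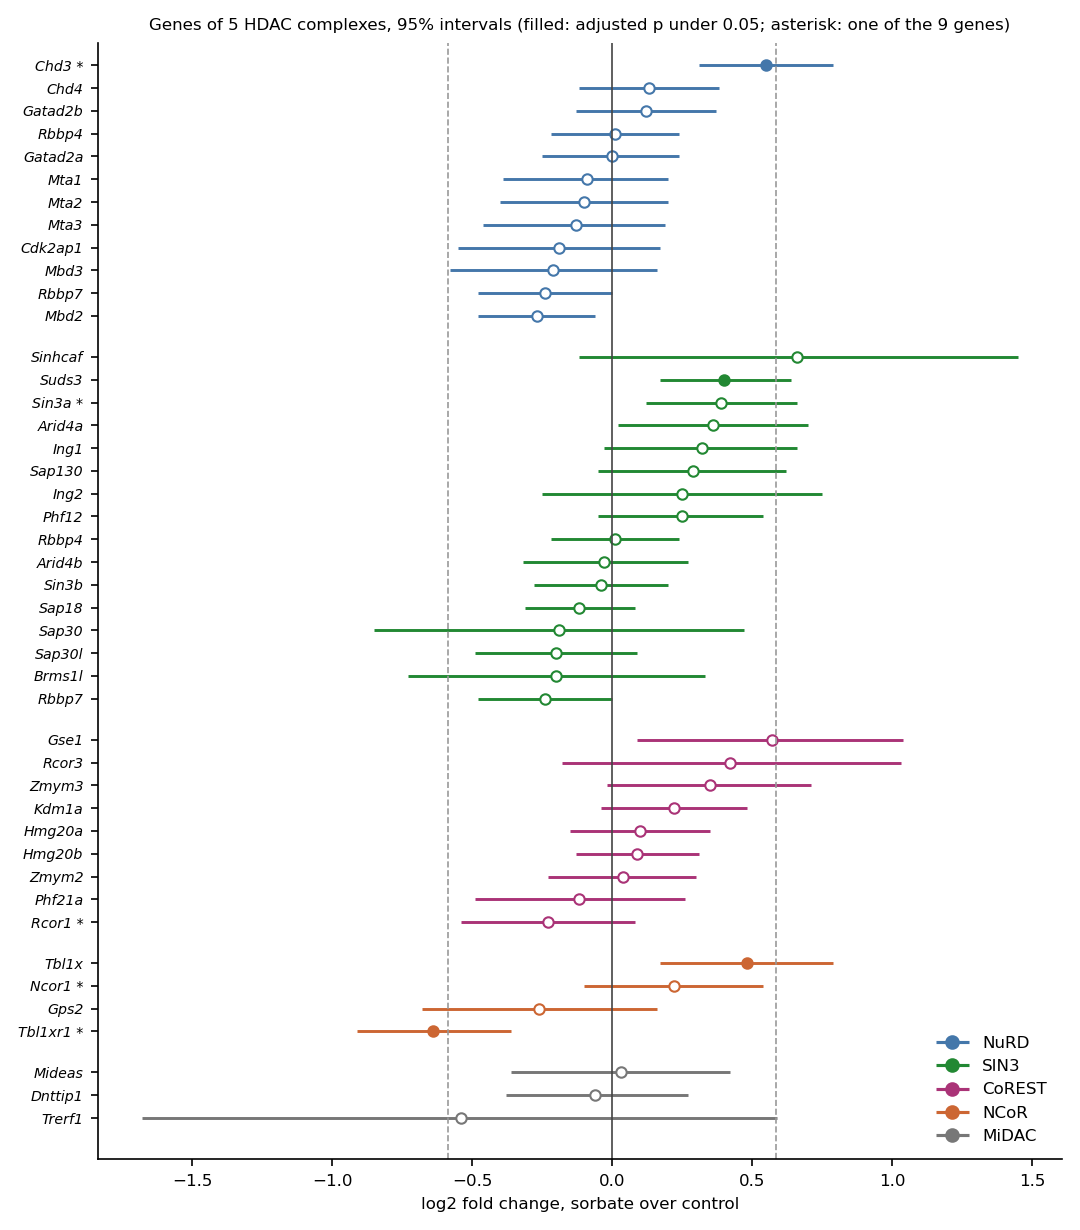
Log2 fold change with 95% interval for tested genes of the 5 complexes, ordered within each complex (Rbbp4 and Rbbp7 belong to NuRD and to SIN3 and appear in both). The 4 filled points are the called genes, Chd3, Suds3 and Tbl1x to the right of 0 and Tbl1xr1 to the left.

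A ratio of related genes within a library does not depend on how libraries are scaled. The largest difference among the ratios given here was that of Tbl1xr1 to Tbl1x. Both genes were already called, in opposite directions, in the same counts, so this ratio restates those calls and is no separate support. Its log2 ratio was 1.01, 0.13, 0.84 and 1.14 in the controls and −0.21, −0.12, −0.47 and −0.51 with sorbate. Counts of Tbl1xr1 exceeded those of Tbl1x in every control and in no sorbate library. These counts were not scaled for transcript length, so they do not say which transcript was more abundant. The difference in group means was −1.11, a 0.46-fold ratio (exact permutation p = 0.0286 over 70 arrangements, two-sided, the smallest possible; adjusted p = 0.0800 over 7 pairs). Of the 50-base words in Tbl1xr1 transcripts, 0.198% occurred in transcripts of any other gene.

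The log2 ratio of Hdac3 to Hdac1 was 0.34, 0.37, −0.10 and 0.23 in the controls and 0.81, 0.80, 0.68 and 0.72 with sorbate. Groups did not overlap, and the difference was 0.54, a 1.45-fold higher ratio (exact permutation p = 0.0286, adjusted p = 0.0800). The ratios of Chd3 to Chd4 (0.43), Sin3a to Sin3b (0.44) and Hdac8 to Hdac1 (0.22) were higher on average with sorbate, each with overlap between the groups (exact permutation p = 0.0571, adjusted p = 0.0800). Hdac2 to Hdac1 differed by 0.07 (exact permutation p = 0.457). With 4 libraries a group and 7 pairs, no difference given here passed 0.05 after adjustment.

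**Figure D5:**
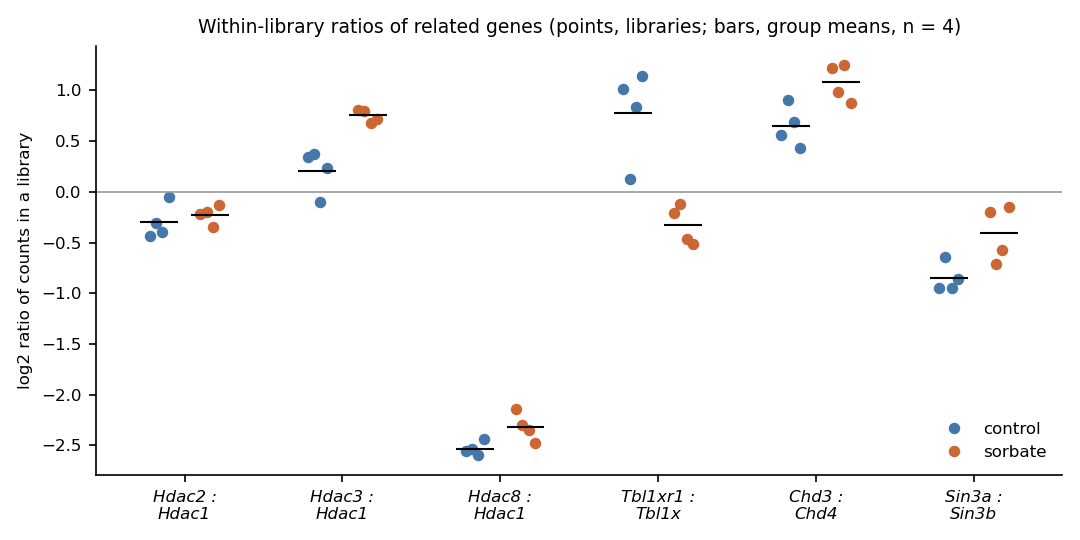
Log2 ratio of counts of related genes within each library, not scaled for transcript length, with group means as bars (n = 4). The ratio of Tbl1xr1 to Tbl1x is above 0 in all 4 controls and below 0 in all 4 sorbate libraries, and the ratio of Hdac3 to Hdac1 is higher in every sorbate library than in any control.

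Genes whose log2 CPM followed each deacetylase most closely over the 8 libraries are given as a description, ranked by Pearson's r among at least 8671 genes that share libraries, depth and scaling. For Hdac3 they were Slc4a2, an anion exchanger (r = 0.99), Mtfr1l (r = 0.99) and Mllt6 (r = 0.98). For Hdac1 they were Zfp617 (r = 0.96), G2e3 (r = 0.95) and Orc3, an origin recognition subunit (r = 0.95). Jkamp (r = 0.95), Cul2, a cullin scaffold (r = 0.93), and Dek (r = 0.92) were nearest to Hdac2. Hnrnpdl (r = 0.94), Sft2d1 (r = 0.89) and Trim12c (r = 0.88) were nearest to Hdac8. None of these 12 genes was called, with log2 fold changes from −0.35 (G2e3) to 0.38 (Mllt6), against 12.4% of all tested genes called. They were picked for following uncalled genes over the same libraries, so the lack of calls is no separate result.

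All 8 hepatocyte markers were detected, with a summed level of 69300 to 86200 CPM in the controls and 79300 to 105000 CPM with sorbate, and 1 of them, Cyp3a11, was called higher. Some markers of several other cell types were called lower with sorbate. Over all tested genes 6.14% were called higher and 6.30% lower. The summed levels of the groups overlapped for every list except the cholangiocyte list. Most of that sum came from 1 gene, Spp1 (138 CPM on average in the controls, 30.7 CPM with sorbate). Of 10 Kupffer cell and macrophage markers 5 were called lower, at 248 to 608 CPM in sum in the controls and 178 to 348 CPM with sorbate. Red cell markers (4 of 5 lower) summed to 331 to 1370 and 251 to 373 CPM. Cholangiocyte markers (2 of 4 tested lower) summed to 52.0 to 248 and 27.6 to 42.4 CPM. Of 7 neutrophil markers only 2 had enough reads to be tested, and these 2 were called lower. The sum of the neutrophil list was 2.12 to 26.1 and 1.10 to 2.76 CPM. Markers with few reads in all libraries were removed by the filter, so 2 of 2 is not a share of that list. Monocyte markers (1 of 4 tested lower) summed to 45.6 to 92.2 and 37.1 to 65.5 CPM, and sinusoidal endothelial markers (1 of 7 lower) to 117 to 241 and 122 to 149 CPM. The neutrophil marker Ly6g had no reads in the sorbate libraries, but the whole neutrophil list summed to as little as 2.12 CPM in the controls. Stellate cell markers (143 to 227 and 150 to 249 CPM) and the 1 tested of 9 lymphocyte markers (list sum 2.51 to 5.20 and 2.62 to 5.17 CPM) had no call. Control 2 had the lowest sum among the controls for all these lists except the hepatocyte and lymphocyte lists, and it was also the control nearest to the sorbate libraries for Hdac3, Tbl1xr1, Chd3 and Sin3a. The part of cell make-up in the differences of the 9 genes was not tested.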

How the data were processed

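Liver poly(A) RNA of the control and sorbate groups (4 libraries each) was sequenced as single reads, per the labels' protocols. The authors deposited whole-number counts per gene with no normalization. The submitters' processing notes name FastQC, HISAT2 2.1.0, Subread and edgeR and the build GRCm38; for counting settings and strand use, nothing is stated in these sources. A further 4 columns of the table matched no sample and were not used. Groups came from the treatment label. Replicate numbers follow accession order and pair nothing.

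Counts were analysed with edgeR 4.0.16 in R 4.3.3: filterByExpr with a minimum count of 10, TMM scaling, the quasi-likelihood F-test (two-sided) and Benjamini-Hochberg adjustment over all 13312 genes tested, with a threshold of 0.05. The SE is the log2 fold change divided by the square root of F, and the interval is that SE times the t quantile. Levels per length used the longest protein-coding transcript of GENCODE vM21 (GRCm38), in which 55227 of the 55487 gene identifiers were found. Ratios of counts within a library used a prior count of 0.5 and an exact permutation test over 70 arrangements, adjusted over 7 pairs. Alternatives were library-size scaling, no filter, DESeq2 1.42.0, limma-voom (limma 3.58.1) with sample weights, 1 surrogate variable (sva 3.50.0), a 99% interval, a threshold of 0.1, a prior count of 5 and each library left out. Adding the pseudogene counts to Hdac1 and taking the length over all exons were chosen after seeing the data. The statistics were tested on simulated data.

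Named genes were the 9 genes, their paralogs in the ratios, every called gene of a complex list or otherwise the 2 with the lowest p, and the 3 genes most correlated with each deacetylase among those at 5 CPM or more, leaving out predicted genes and pseudogenes. The 9 genes and all lists were chosen with earlier results of these data known. One gene and the ratio that needs it entered the fits, counts and adjustments but are not reported here.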

Additional observations from a re-analysis of the deposited data

How the results depend on the processing

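Of 240 values recomputed under the alternatives, 190 kept their direction and side of the threshold or, for a count of genes or an interval bound, stayed near the main value (a count within 1.5 times, a bound within the spread between replicates). Tbl1xr1 and Chd3 kept their calls except with 1 surrogate variable (−0.41 and 0.46). Hdac3 (0.31, not called) passed with library-size scaling (0.43), with limma-voom (0.41) and without control 2, was 0.20 with the surrogate variable, and ranged from 0.25 to 0.40 over the leave-outs. Sin3a (0.39, not called) passed with library-size scaling (0.51), DESeq2 (0.40), limma-voom (0.46) and without control 2, was 0.23 with the surrogate variable, and ranged from 0.33 to 0.50. Hdac8, at 0.00, took the other sign with the surrogate variable (−0.04) and in some leave-outs (−0.07 to 0.06). The far bound of its interval was 0.53 at the 99% level. Complex genes called higher numbered 10 with limma-voom, 0 with the surrogate variable and 1 to 8 over the leave-outs, 8 being without control 2; those called lower numbered 2, 0 and 1 to 3, 3 being without control 2, and 2 at a threshold of 0.1. Over all genes, higher and lower calls numbered 1300 and 550 with library-size scaling, 1968 and 1944 with limma-voom, 313 and 293 with the surrogate variable, and 1337 and 1414 at a threshold of 0.1. Over the leave-outs they ranged from 332 to 2053 higher and 357 to 1915 lower, lowest without control 3 and highest without control 2. With lengths over all exons, Ncor1 (6.32 RPKM) lay above Hdac1 (6.02 RPKM), and Hdac3 took 31.8% to 39.0% of the class I sum in the controls and 43.3% to 44.9% with sorbate. The causes of these shifts were not tested. No paired analysis was possible because nothing in the labels says that library numbers mark pairs, and replicates were numbered in accession order. Hdac8 had the fewest counts, down to 55 in a library, and the widest interval of the 9 genes.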
